A study of Mus musculus with 6 samples.

Results

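NMDA receptors are glutamate-gated cation channels of the postsynaptic membrane. They pass calcium only when glutamate and a co-agonist, glycine or D-serine, are bound while the membrane is depolarised, and in the hippocampus they are known for their part in long-term potentiation and spatial memory. Each receptor joins the obligatory glycine-binding subunit GluN1 (Grin1) with glutamate-binding GluN2 subunits (Grin2a to Grin2d), which set the channel's kinetics, or with the glycine-binding GluN3 subunits (Grin3a and Grin3b). The 7 genes of this family were found by symbol in the deposited comparison table, 1 row each, out of 52550 genes in the count table. Of the 7, 6 had enough counts to be tested, and Grin3b did not.

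Hippocampal RNA was sequenced from 6 mice, male and of strain C57BL/6J, with 1 mouse per library. All were injected at 8 weeks of age into the CA1 field of both hippocampi with an adeno-associated virus, and the labels give 31 days for all. The 3 Control mice received a control virus, whose content the labels do not describe. The 3 TAF15 OE mice received a virus carrying TAF15, an RNA-binding protein, and its label names CaMKIIα, whose promoter is active in excitatory neurons. The virus was placed in CA1 while the RNA came from hippocampus as a whole, so transduced and other cells were measured together.

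The libraries held from 14965464 to 16067000 counts. Taf15 had from 795 to 958 counts in Control and from 3661 to 4477 in TAF15 OE, so that every library matched its label in this respect. Defining transcripts of the hippocampus were present, with the granule neuron gene Prox1 at 131 CPM (counts scaled to a common library total) and the CA1 gene Wfs1 at 158 CPM in Control. The libraries Control 1 and TAF15 OE 1 stood apart from the other 4 on the second principal component. The 7 choroid plexus markers summed to 146 CPM in Control 1, against 4666 and 4294 CPM in Control 2 and 3. Their sum was 1536 CPM in TAF15 OE 1, against 4530 and 4991 CPM in TAF15 OE 2 and 3. The counts of subunit and partner genes called and the ratios fixed by the design are therefore also given without Control 1 and TAF15 OE 1.

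Per gene length, the family had a clear order of abundance in hippocampus. In Control, Grin1 stood highest at 41.1 ± 0.536 FPKM (the authors' level per gene length and library total, mean ± SD over n = 3 mice, here and for every group mean below). It was followed by Grin2b at 27.6 ± 1.62, Grin2a at 20.0 ± 2.196 and Grin2c at 12.0 ± 1.29 FPKM. Grin3a (3.57 ± 0.575) and Grin2d (2.94 ± 0.284 FPKM) were far lower, and Grin3b stood at 0.139 ± 0.0711 FPKM. No neighbours in this order overlapped in the Control libraries, although Grin3a and Grin2d came close, with a lowest Grin3a value of 3.23 FPKM and a highest Grin2d value of 3.22 FPKM. The order of the means was the same in TAF15 OE, but there Grin2a (15.2 ± 1.84 FPKM, from 14.1 to 17.3) and Grin2c (13.5 ± 1.81 FPKM, from 12.3 to 15.6) overlapped. The ratio of their means was 1.67 in Control and 1.13 in TAF15 OE. The order and this overlap depend on the length used for each gene, such as 9700 bases for Grin1, 24842 for Grin2b and 5037 for Grin2c. In CPM, given below, Grin2b stood above Grin1 in every library, and Grin2a and Grin2c did not overlap in either group.

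**Figure D1:**
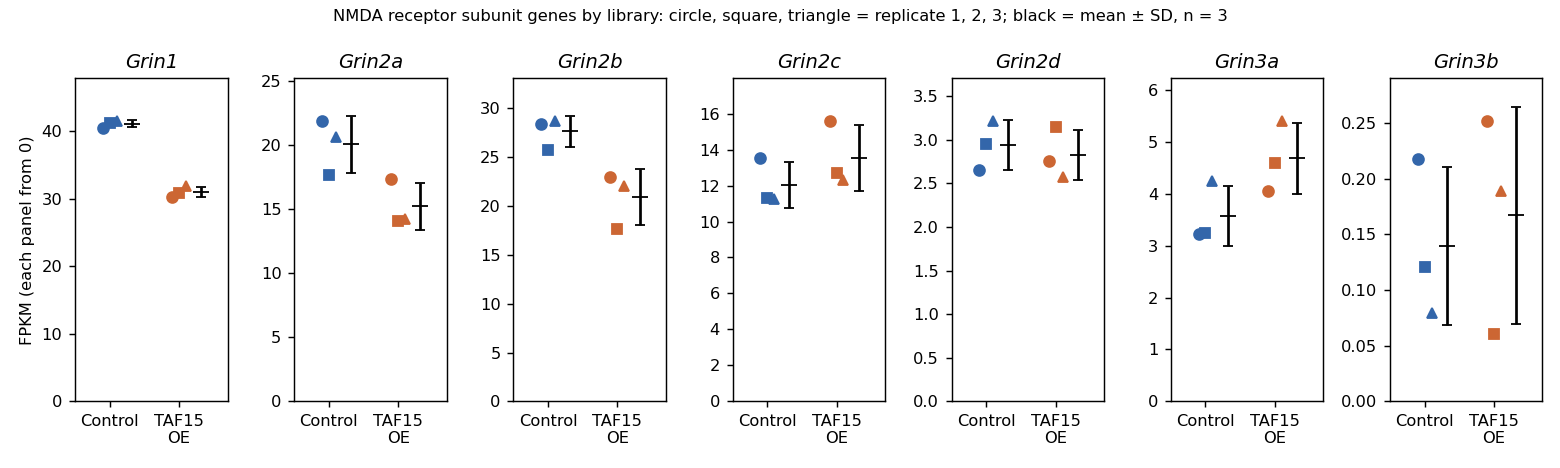
FPKM of the 7 NMDA receptor subunit genes in each library, in panels that start at 0, with Control in blue, TAF15 OE in orange, symbols for the replicate number and black bars for the mean ± SD of 3 mice. Grin1, Grin2a and Grin2b lay lower in all 3 TAF15 OE libraries than in any Control library, while the groups overlapped in Grin2c, Grin2d, Grin3a and Grin3b.

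The 3 most abundant subunit genes, Grin1, Grin2a and Grin2b, fell in TAF15 OE by nearly the same factor: Grin1 fell by 27.0%, Grin2b fell by 26.8% and Grin2a fell by 26.5%. The 3 less abundant tested genes, Grin2c, Grin2d and Grin3a, did not pass the test. Calls were made at an adjusted p below 0.05 from edgeR's quasi-likelihood test over 16758 genes, of which 15.3% were called, 5.95% lower and 9.32% higher. Among the 6490 tested genes whose log2 CPM averaged 5 or more, 21.2% were called, 13.2% lower and 8.01% higher. The groups did not overlap in the 3 genes that fell, as in 34.6% of all tested genes, 15.5% with TAF15 OE lower and 19.1% with it higher. Without Control 1 and TAF15 OE 1 the same 3 genes were called, with log2 fold changes from -0.53 to -0.47, where 13% of all tested genes were called, 5.99% lower and 7.05% higher.

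Grin1, the subunit that every NMDA receptor contains, had the smallest spread relative to its mean of the 7 genes in both groups. It stood at 408, 401 and 409 CPM in Control 1, 2 and 3 and at 294, 294 and 302 CPM in TAF15 OE 1, 2 and 3. The groups were tight and did not overlap. The log2 fold change was -0.45 (SE 0.060, adjusted p = 0.00109 by edgeR). It rests on 6015, 6041 and 6137 raw counts in the Control libraries and 4601, 4472 and 4969 in those of TAF15 OE. By p it ranked 131 of the 16758 tested genes. The call held with each library left out in turn, at adjusted p from 0.00115 to 0.00837.

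Grin2b encodes the GluN2B subunit, which gives slow channel currents and binds CaMKII. Its level was 733, 642 and 724 CPM in Control 1, 2 and 3 and 571, 431 and 535 CPM in TAF15 OE 1, 2 and 3, with TAF15 OE 2 the lowest. The groups did not overlap, and the edgeR log2 fold change was -0.45 (SE 0.10) at an adjusted p of 0.0164. Leaving out Control 1 (edgeR adjusted p = 0.0619), Control 3 (0.0618) or TAF15 OE 2 (0.0527) ended the call, with log2 fold changes of -0.42, -0.43 and -0.35.

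Grin2a encodes GluN2A, the faster GluN2 subunit that gains weight as hippocampal synapses mature. It stood at 408, 317 and 374 CPM in Control 1, 2 and 3 and at 311, 249 and 249 CPM in TAF15 OE 1, 2 and 3. The groups did not overlap, although Control 2 lay just above TAF15 OE 1. The log2 fold change was -0.44 (SE 0.11, adjusted p = 0.0308 by edgeR). Leaving out Control 1 (edgeR adjusted p = 0.0901), Control 3 (0.0933), TAF15 OE 2 (0.108) or TAF15 OE 3 (0.108) ended the call, with the log2 fold change between -0.43 and -0.36.

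Among the remaining GluN2 genes, Grin2c, known for its high level in cerebellar granule cells and also found in astrocytes, had 70.8, 57.1 and 57.4 CPM in Control 1, 2 and 3. Its values in TAF15 OE 1, 2 and 3 were 78.5, 62.8 and 60.5 CPM. In both groups replicate 1 was the highest and the ranges overlapped (log2 fold change 0.12, SE 0.12, adjusted p = 0.546 by edgeR), and without TAF15 OE 1 the sign turned (-0.028). Grin2d, the subunit with the slowest currents, which is prominent in interneurons, had 18.3, 19.7 and 21.7 CPM in Control 1, 2 and 3, with 18.3, 20.6 and 16.7 CPM in TAF15 OE 1, 2 and 3, so the ranges overlapped. Its log2 fold change was -0.10 (SE 0.12, adjusted p = 0.611 by edgeR). Grin2d overlaps Kdelr1 on the other strand by 5607 bases in GENCODE M21, and Kdelr1 had 617 to 716 counts against 270 to 326 for Grin2d. Whether reads were counted by strand is not stated in the labels or notes, and those from the overlap cannot be assigned with certainty.

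The GluN3 subunits lower the calcium flow and magnesium block of receptors that contain them. Grin3a had 41.2, 40.0 and 52.7 CPM in Control 1, 2 and 3 and 49.6, 55.6 and 64.8 CPM in TAF15 OE 1, 2 and 3, so that Control 3 lay above TAF15 OE 1. The log2 fold change of 0.34 (SE 0.13) did not pass (unadjusted p = 0.0227 and adjusted p = 0.104 by edgeR). It was called without Control 3 (log2 fold change 0.48, adjusted p = 0.0363) and, just below the threshold, without TAF15 OE 1 (0.41, adjusted p = 0.0498). The raw counts of Grin3b were 11, 6 and 4 in the Control libraries and 13, 3 and 10 in TAF15 OE 1, 2 and 3. The groups overlapped, and a change was not detectable at this depth. It shares 2243 bases with the opposite-strand gene Tmem259, which had 1741 to 1963 counts.

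**Figure D2:**
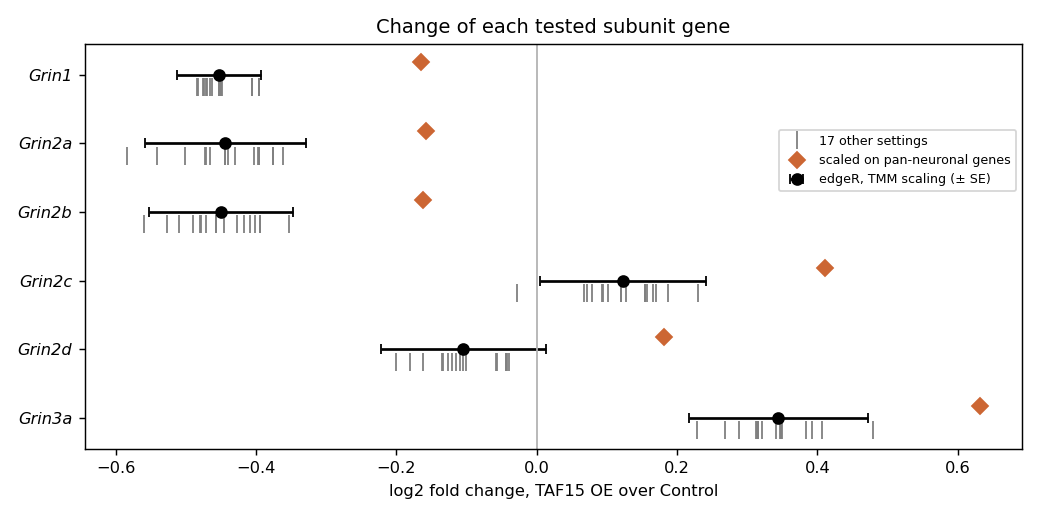
Log2 fold change, TAF15 OE over Control, of the 6 tested subunit genes, with the edgeR value ± SE as black circles, the value after scaling on pan-neuronal genes as orange diamonds and the other settings as grey ticks. Grin1, Grin2a and Grin2b stay below 0 under every setting shown, Grin3a stays above 0, Grin2d turns from -0.10 to 0.18 under pan-neuronal scaling, and Grin2c turns to -0.028 without TAF15 OE 1.

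The proportions among the 3 genes that fell were compared within each library, where 3 against 3 libraries cannot give a p below 0.1. The ratio of Grin2a to Grin2b, which is taken inside a library and does not depend on library scaling, was -0.37, -0.55 and -0.48 on the log2 FPKM scale in Control 1, 2 and 3. The same ratio came to -0.41, -0.32 and -0.63 in TAF15 OE 1, 2 and 3. The groups overlapped, and the difference of 0.013 had a p of 1.0 (exact permutation test, two-sided, 3 against 3 libraries). Without Control 1 and TAF15 OE 1 the difference was 0.037. In linear terms the FPKM ratio of Grin2a to Grin2b was 0.723 in Control and 0.730 in TAF15 OE. The ratios of Grin2a and Grin2b to Grin1 differed between the groups by 0.0094 and -0.0039 on the log2 scale (exact permutation p = 1.0 for each).

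Relative to Grin1, Grin2c, Grin2d and Grin3a had higher values in every TAF15 OE library than in any Control library, as did most genes. Of the 16757 other tested genes, 73.1% had a ratio to Grin1 that did not overlap between the groups, 72.7% higher and 0.364% lower in TAF15 OE. The fall of Grin1 enters each of these ratios, so they are no separate result about the other subunits. The log2 ratio of Grin2c to Grin1 was -1.78 ± 0.169 in Control and -1.20 ± 0.218 in TAF15 OE, a difference of 0.57. For Grin3a the difference was 0.80, from -3.54 ± 0.209 to -2.74 ± 0.173, and for Grin2d it was 0.35, from -3.81 ± 0.122 to -3.46 ± 0.169. The groups did not overlap in any of these 3 ratios, and each had an exact permutation p of 0.1, the smallest that 3 against 3 allows, so that none could reach 0.05. These single-subunit ratios were added after the data were seen. Adjusted over the 7 ratios computed, p was 0.233 for these 3. The 4 GluN2 genes summed relative to Grin1 differed by 0.15 on the log2 scale, with overlapping groups (exact permutation p = 0.4, adjusted p = 0.7), and by 0.10 without Control 1 and TAF15 OE 1.

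As shares of the summed FPKM of all 7 genes, Grin1 held 38.3 ± 1.84% in Control and 35.2 ± 2.40% in TAF15 OE. The share of Grin2c was 12.2%, 11.1% and 10.3% in Control 1, 2 and 3, compared with 16.7%, 15.3% and 13.9% in TAF15 OE 1, 2 and 3. Grin3a held 3.32 ± 0.484% and 5.33 ± 0.902%. The fall of Grin1, Grin2a and Grin2b lowers the sum and so enters these shares, which are no separate result about Grin2c or Grin3a. The sum itself went from 107 ± 4.54 to 88.3 ± 5.20 FPKM, a difference of -17.8%, with every TAF15 OE library below every Control library. Shares depend on the length used for each gene, which was 9700 bases for Grin1, 17933 for Grin2a, 24842 for Grin2b and 5037 for Grin2c, as worked out from the deposited counts and FPKM.

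**Figure D3:**
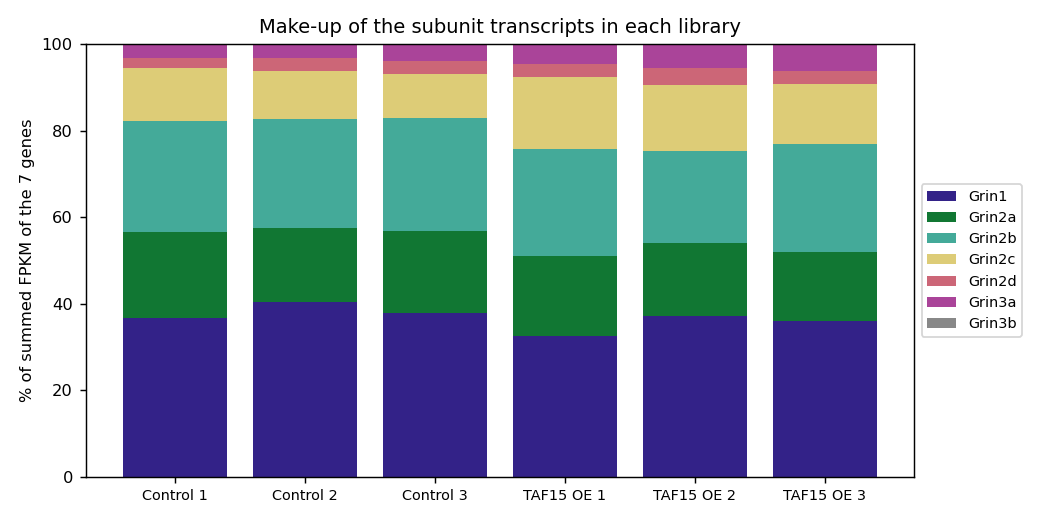
Share of each subunit gene in the summed FPKM of the 7 genes, in percent, as 1 stacked bar per library. Grin2c takes 10.3% to 12.2% in the Control libraries and 13.9% to 16.7% in the TAF15 OE libraries, while Grin3b is too small to be seen. The fall of Grin1, Grin2a and Grin2b enters the share of Grin2c.

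The genes that fell lie on different chromosomes, and Grin1 is far shorter than Grin2a and Grin2b. Grin1 spans 28.0 kb (chr2:25291181-25319187, minus strand, GRCm38), Grin2a 428 kb (chr16:9567898-9995560, minus strand) and Grin2b 460 kb (chr6:135713233-136173511, minus strand). The genes that did not pass span 18.1 kb (Grin2c, chr11:115249169-115267243), 46.5 kb (Grin2d, chr7:45831883-45878378) and 184 kb (Grin3a, chr4:49661611-49845744), all on the minus strand. Grin3b lies on the plus strand (chr10:79970715-79977190). All 7 positions in the deposited table equalled those of GENCODE M21, where Grin1 has 14 annotated transcripts, 8 of them protein-coding. Counts are per gene, so splice forms of Grin1 were not separated.

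Grin1 overlaps the antisense gene Grin1os by 7706 bases. For Grin1os 184, 202 and 224 reads were counted in Control 1, 2 and 3, against 144, 153 and 181 in TAF15 OE 1, 2 and 3. Its edgeR log2 fold change was -0.43 (SE 0.13) at an adjusted p of 0.0505. Its groups did not overlap either, but it missed the threshold. Without strand information reads of the pair cannot be told apart.

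Start-site windows from RefSeq (GRCm38.p6) were used for 4 of the 7 genes, Grin1, Grin2c, Grin2d and Grin3b. The 250 bases before the start of Grin1, which fell, and of Grin2c, which did not pass, are shown 5′ to 3′ on the gene's strand, to set the promoter of the subunit common to all receptors beside that of a subunit with another pattern. Capitals mark matches, on either strand, to the motifs named after them.
Grin1, chr2:25319188-25319437, minus strand: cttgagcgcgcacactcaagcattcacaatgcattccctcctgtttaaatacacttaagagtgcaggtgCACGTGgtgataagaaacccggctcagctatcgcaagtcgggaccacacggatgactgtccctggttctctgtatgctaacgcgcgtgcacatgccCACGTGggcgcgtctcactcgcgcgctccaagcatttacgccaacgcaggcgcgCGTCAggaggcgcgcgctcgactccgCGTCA
Grin2c, chr11:115267244-115267493, minus strand: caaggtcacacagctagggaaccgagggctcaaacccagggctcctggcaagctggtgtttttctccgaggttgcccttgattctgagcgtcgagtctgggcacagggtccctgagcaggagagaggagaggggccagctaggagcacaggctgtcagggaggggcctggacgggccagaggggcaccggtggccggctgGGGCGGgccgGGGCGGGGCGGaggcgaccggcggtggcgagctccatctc

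The Grin1 window held 2 matches to the E-box CACGTG, 175 and 79 bases before the start. E-boxes are bound by basic helix-loop-helix factors, and 6.02% of all 32851 such windows held at least 1 match. It also held 2 matches to TGACG, the core of the cyclic AMP response element, which also lies inside TGACGTCA, 26 and 0 bases before the start, as did 17.8% of windows at least once. The Grin2c window held 3 matches to the Sp1 GC box GGGCGG, 2 of them overlapping, which 32.7% of windows held. The full response element TGACGTCA (1.55% of windows), the EGR site GCGGGGGCG (2.57%), the NPAS4 core TCGTG (13.3%), which occurs inside no other motif searched, and the NRF1 site (3.74%) had no match in either. The Grin1 window had 58.8% G and C with 27 CpG pairs and that of Grin2c 68.8% with 15, against medians of 52.4% and 6.0. The windows of Grin2d and Grin3b, not shown, held no match to any of these motifs. The start site used for Grin2d, at base 45866681, lies inside the gene span given above. These are letter matches only.

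Genes with the most similar profile over the 6 libraries were found among 14497 tested genes by the root mean square difference of centred log2 CPM. For Grin1 they were Lingo1, Numbl and Atp6v1g2 (0.032 to 0.033), and for Grin2a they included Klhl34 and Plxna4 (0.029 and 0.033). For Grin2b they were Zfp950, Cys1 and Flt3 (0.037 to 0.045). Ppp1r35, Lyst and Slc29a1 were nearest to Grin2c, Scfd2, Zfp316 and Ercc2 to Grin2d, and Rfx2, Pafah2 and Med30 to Grin3a (0.061 to 0.064). Within the family, Grin2a and Grin2b were the closest pair (0.11), and Grin2a and Grin3a the most distant (0.47). These rest on 6 libraries in 2 groups.

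Beside the fall of Grin1, Grin2a and Grin2b there were lower levels of many pan-neuronal and excitatory transcripts and higher levels of astrocyte, microglia and oligodendrocyte ones. In bulk tissue, fewer cells of a type and less RNA per cell cannot be told apart. Of 20 pan-neuronal markers, 15 fell and 0 rose, with a median log2 fold change of -0.28 beside a median of 0.026 over all tested genes, and their summed level ran from 14876 to 15512 CPM in Control and from 12182 to 12741 in TAF15 OE. The neuronal nuclear gene Rbfox3 (-0.50) and the release gene Snap25 (-0.28) were among them. Of 8 excitatory neuron markers 4 fell (median -0.53), including the glutamate transporter gene Slc17a7 at -0.48 (SE 0.083, adjusted p = 0.00427 by edgeR), and their sum ran from 4078 to 4528 and from 2726 to 3265 CPM. Of 10 interneuron markers, Pvalb and Sst fell, and the sum ran from 1195 to 1278 and from 1089 to 1160 CPM. Most markers of single neuron fields did not pass, and 0 were called higher. Called lower were 2 of 7 for CA1, 1 of 7 for CA2 and CA3 and 3 of 7 for granule neurons. Of all tested genes, 5.95% were called lower, the share to set beside each count of lower markers here. The CA1 markers had log2 fold changes from -0.85 to 0.55 (median -0.31). Their sum ran from 812 to 841 CPM in Control and from 570 to 753 in TAF15 OE. For CA2 and CA3 the sum ran from 262 to 274 and from 223 to 231 CPM (median -0.080). That of granule neurons ran from 547 to 672 and from 445 to 589 CPM (median -0.16).

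Markers of 3 glial types were mostly called higher. Of 10 astrocyte markers 7 rose (median 0.58, summed 4283 to 5424 CPM in Control and 8063 to 8794 in TAF15 OE), of 11 microglia markers 10 rose (median 1.20, 553 to 600 and 1115 to 1735 CPM), and of 9 oligodendrocyte markers 8 rose (median 0.47, 5064 to 5457 and 6240 to 8091 CPM). Of 6 oligodendrocyte precursor markers 1 rose, of 8 endothelial markers 3 rose, and of 7 choroid plexus markers 0 were called in either direction. Beside these counts, 9.32% of all tested genes were called higher. No marker in these lists averaged under 1 CPM. Their part in the subunit results was not tested.

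When the libraries were scaled on the 20 pan-neuronal genes, all tested genes shifted to a median of 0.31 on the log2 scale, 41.8% were called, 41% higher and 0.734% lower. Relative to those neuronal transcripts, Grin1 had a log2 fold change of -0.16 and was no longer called (adjusted p = 0.0508 by edgeR), and so were Grin2a (-0.16, adjusted p = 0.256) and Grin2b (-0.16, adjusted p = 0.216). Grin2c (0.41, adjusted p = 0.0124) and Grin3a (0.63, adjusted p = 0.00977) were called higher on that scale, where the shift of all genes has to be kept in mind, and Grin2d turned to 0.18 (adjusted p = 0.247).

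**Figure D4:**
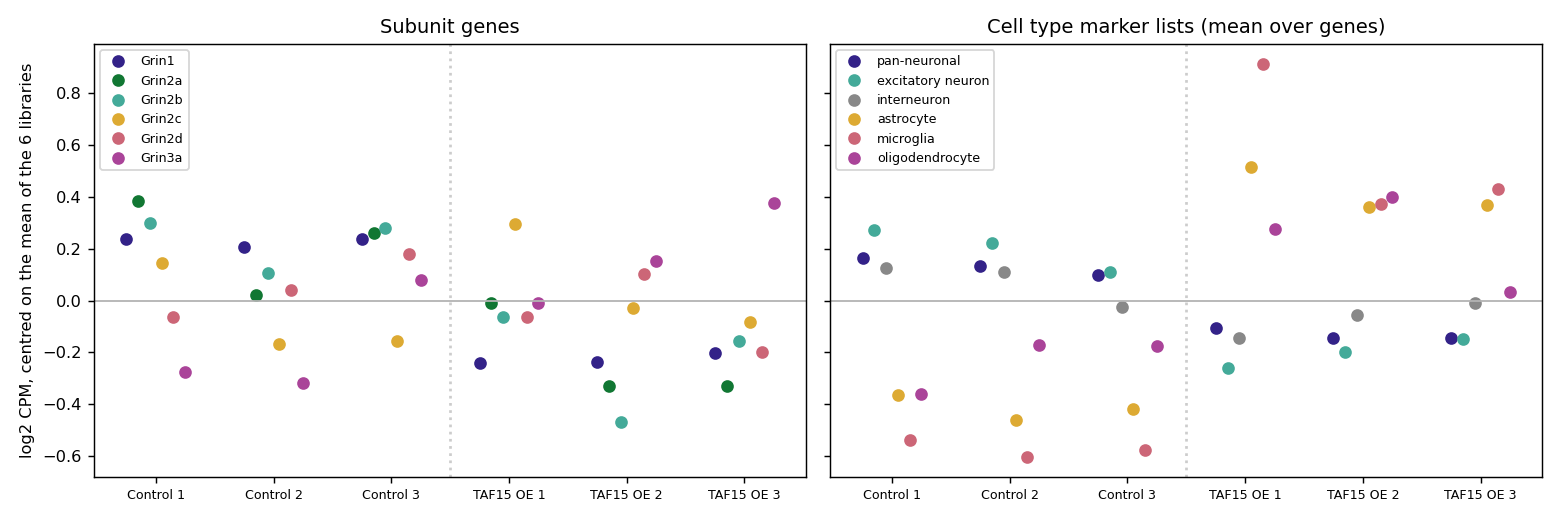
Log2 CPM of the 6 tested subunit genes (left) and the mean of cell type marker lists (right) in each library, centred on the mean over the 6 libraries, with a dotted line between Control and TAF15 OE. Grin1, Grin2a and Grin2b lie above 0 in all Control libraries and below 0 in all TAF15 OE libraries, with Grin2a close to 0 in Control 2 and TAF15 OE 1, and the pan-neuronal list likewise lies above 0 in Control and below 0 in TAF15 OE.

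Of 86 genes listed as partners of the receptor, 84 were tested, 31 fell and 2 rose. That is 36.9% called lower, beside 5.95% of all tested genes, with a median log2 fold change of -0.14 beside 0.026 for all. The list was chosen with earlier results of these data known, so this share is no test of enrichment. Among the tested genes whose log2 CPM averaged 5 or more, 13.2% were called lower, and of the 20 pan-neuronal markers 15 were. Without Control 1 and TAF15 OE 1, 29 partners were called lower and 3 higher. Under pan-neuronal scaling, which shifts all genes upward, 5 partners were called lower and 29 higher. These are 5.95% and 34.5% of those tested, beside 0.734% and 41% of all tested genes on that scale. Of the partners described next, Camk2b (-0.39), Ppp3ca (-0.29), Lin7b (-0.40) and Kalrn (-0.33) were also called lower on that scale. There Dlg3, Dlgap1, Dlgap3, Dlg4, Camk2a, Rasgrf2, Nsmf and Ephb2 were no longer called, at edgeR adjusted p from 0.0664 to 0.580, and Ap2m1 (0.083) and Srr (0.0013) had the opposite sign.

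Postsynaptic scaffolds, which anchor the receptor's tail under the membrane, were mostly lower. Of 16 tested 9 fell and 0 rose (median -0.33). The MAGUK gene Dlg3, whose product SAP102 binds GluN2 tails, went from 263 ± 14.9 CPM down to 201 ± 9.16 (edgeR log2 fold change -0.39, SE 0.070, adjusted p = 0.00464). Dlgap1 and Dlgap3, which link MAGUKs to Shank proteins, fell by 0.39 and 0.48 on the log2 scale. Dlg4, encoding PSD-95, had an edgeR log2 fold change of -0.34 (adjusted p = 0.0158), a call that ended without Control 1 (adjusted p = 0.0546), TAF15 OE 2 (0.0665) or TAF15 OE 3 (0.0556). Dlg2, Shank1, Homer1 and Dlgap2 were among the other scaffold genes called.

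Kinases and phosphatases that act on the receptor or read its calcium had 12 of 24 lower and 0 higher (median -0.26). Camk2b, the beta chain of the calcium-calmodulin kinase that docks on GluN2B, went from 1459 ± 119 CPM down to 915 ± 101 (edgeR log2 fold change -0.67, SE 0.093, adjusted p = 0.00139). Its alpha partner Camk2a fell from 5090 ± 643 to 3474 ± 445 CPM (-0.55, SE 0.11). The calcineurin catalytic gene Ppp3ca also fell (-0.58). The tyrosine kinase gene Fyn, whose product phosphorylates GluN2 tails, had a log2 fold change of -0.044 (adjusted p = 0.731 by edgeR), and Camk2g one of 0.062 (adjusted p = 0.595). Camk2d had a log2 fold change of 0.51 with overlapping groups (adjusted p = 0.155 by edgeR), and in the authors' deposited table its adjusted p was 0.0252. Fyn, Camk2g and Camk2d were chosen after their values were seen.

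Effectors downstream of the channel had 6 of 11 lower and 0 higher (median -0.36). Kalrn, a guanine nucleotide exchange factor of dendritic spines, went from 745 ± 51.0 CPM down to 485 ± 29.7 (edgeR log2 fold change -0.62, SE 0.076, adjusted p = 7.95e-04). Rasgrf2, a calcium-activated Ras exchange factor, fell by 0.48, and Nsmf, encoding the synapse-to-nucleus messenger Jacob, fell by 0.49 on the log2 scale. Calm2, Calm3 and Rasgrf1 completed the 6.

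The other roles held few calls. Of 10 trafficking genes 2 fell, the PDZ adaptor gene Lin7b (-0.70, SE 0.14) and the clathrin adaptor gene Ap2m1 (-0.21, SE 0.063, adjusted p = 0.0458 by edgeR). The call of Ap2m1 was lost with each library left out in turn. Of 5 auxiliary and extracellular partners, the receptor tyrosine kinase gene Ephb2 fell (-0.58, SE 0.13). Without Control 3 (edgeR adjusted p = 0.0512) or TAF15 OE 2 (edgeR adjusted p = 0.0521) this call ended.

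In the supply of co-agonists, 1 of 11 tested genes rose and 1 fell (median 0.065). Srr, the serine racemase that makes D-serine, went from 44.9 ± 3.15 CPM down to 36.8 ± 1.78 (edgeR log2 fold change -0.29, SE 0.087, adjusted p = 0.0462), and the call was lost without any 1 library other than TAF15 OE 1. The neutral amino acid transporter gene Slc1a5 rose from 3.61 ± 0.964 to 11.0 ± 0.997 CPM (1.60, SE 0.21, adjusted p = 9.84e-04 by edgeR). Of 7 transcription factors known at Grin promoters, Sp1 rose (0.36, SE 0.096, adjusted p = 0.0263 by edgeR), and no other was called. The call of Sp1 held in 1 of 6 fits with a library left out and was lost when Control 1 and TAF15 OE 1 were left out together (adjusted p = 0.155).

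**Figure D5:**
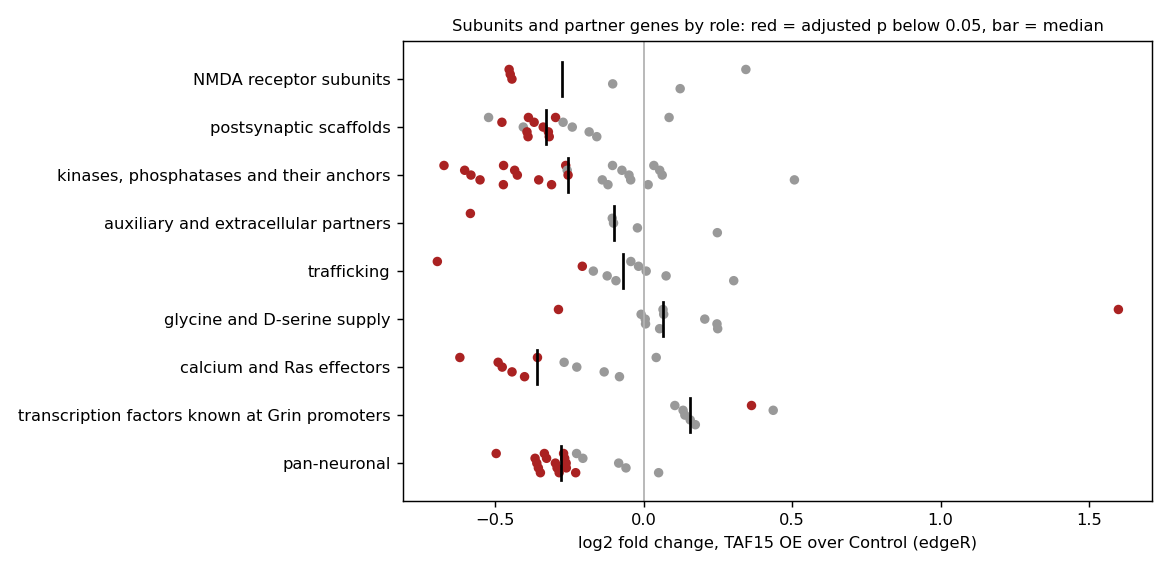
Log2 fold change, TAF15 OE over Control, of each tested gene of the subunit family, of 7 groups of partner genes and of the pan-neuronal markers, with genes at an adjusted p below 0.05 in red and the median of each group as a bar. Scaffold, kinase and phosphatase, and effector genes have medians of -0.33, -0.26 and -0.36, near the pan-neuronal median of -0.28, all with TMM scaling.

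In the authors' deposited table, where 16% of genes with an adjusted p were below 0.05, 7.53% lower and 8.51% higher, the log2 fold changes were -0.48 for Grin1, -0.48 for Grin2b and -0.47 for Grin2a, with adjusted p of 2.18e-10, 1.22e-04 and 6.13e-04. The column of that table that marks significant genes says no for all 7. It says yes for 558 genes, of which the smallest absolute log2 fold change is 1.00. In the authors' deposited table the adjusted p was 0.0968 for Grin3a, 0.739 for Grin2c and 0.662 for Grin2d, and NA for Grin3b. The DESeq2 alternative used here returned the same log2 fold changes and unadjusted p for the tested subunit genes. It and the authors' values are therefore not separate results.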

How the data were processed

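Hippocampal RNA of 3 Control and 3 TAF15 OE mice was analysed from the deposited tables. The tools named are TopHat2, HISAT2 2.1.0, Bowtie2 2.2.3 and CASAVA, with build GRCm38, per the submitters' processing notes. What each did, which counter was used and whether it read strand is not given in the sources used here. Raw counts per Ensembl gene and FPKM values were deposited, and the FPKM could be rebuilt from the counts, library totals and 1 length per gene in 8926 genes (largest relative deviation 3.12e-09). The authors' comparison table adds a normalised mean signal, the fold change as a ratio and as log2, and p-values of a test it does not name. For the tested subunit genes the DESeq2 alternative used here gave the same log2 fold changes and unadjusted p as that table.

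Groups came from sample titles. Counts were tested in R 4.3.3 with edgeR 4.0.16 (filterByExpr with minimum count 10 and minimum total 15, TMM, robust quasi-likelihood fit, group as only term, Benjamini-Hochberg over 16758 genes, threshold 0.05). The fit was also run on simulated counts with known changes. Recovery was required there only for changes far larger than those of the subunit genes, so it does not bear on changes of their size. Standard errors come from the F statistic, and log2 CPM used a prior count of 2. Ratios within libraries were tested by exact permutation. Alternatives were other scalings (DESeq2 1.42.0 size factors, total counts, pan-neuronal genes), other filters (none, mean CPM of at least 1), DESeq2, limma-voom (limma 3.58.1), limma-trend on log2(FPKM + 1) or log2(FPKM + 0.1) with a filter at a mean FPKM of 0.5 or none, the replicate number as a block, and libraries left out. Members and lists were chosen with earlier results of these data known. Named were all 7 members, Taf15, up to 3 called genes of smallest p per partner role, Camk2a, Camk2b, Dlg4, Srr, the 3 nearest profiles of each tested member (no predicted genes or pseudogenes) and defining cell type markers. Some genes that this rule names are not reported here. Ratios to Grin1 of single subunits were added after the data were seen. Symbols and positions came from the authors' table.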

Additional observations from a re-analysis of the deposited data

How the results depend on the processing

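Grin1, Grin2a and Grin2b had a negative log2 fold change under all 18 alternatives to the edgeR fit. Grin1 was called under 17 of them, Grin2a under 10 and Grin2b under 11. Of the 7 subunit genes, 3 were called, but 1 by limma-trend on log2(FPKM + 1), on log2(FPKM + 0.1) and on log2(FPKM + 1) without a filter, and between 1 and 4 with each library left out in turn. For Grin2a and Grin2b those FPKM fits gave adjusted p from 0.0687 to 0.144 and from 0.0560 to 0.120. Of the partner genes 33 were called, but 20 on log2(FPKM + 1), 8 without a filter there, and between 17 and 38 with a library left out (18 without Control 1, 21 without Control 3, 17 without TAF15 OE 2). Under pan-neuronal scaling Grin2d (0.18), Ap2m1 (0.083) and Srr (0.0013) changed sign. With a library left out, the log2 fold change of Grin2c ran from -0.028 to 0.23, the ratio of Grin2a to Grin2b from -0.053 to 0.10 (negative without Control 2, TAF15 OE 1 or TAF15 OE 2), and that of the GluN2 sum to Grin1 from 0.049 to 0.21. With raw counts in place of FPKM the last was 0.046. Of all tested genes, these FPKM fits called 9.5%, 9.98% and 2.17%, and those with a library left out between 7.78% and 14.6%. The cause of these changes was not tested.

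Grin3a was called without a filter (adjusted p = 0.0100). The replicate number as a block called 4 subunit genes, Grin3a among them (0.35, adjusted p = 0.0117), and 43 partner genes, with 19.6% of all tested genes called, and left the ratios at 0.013 and 0.15. Same-numbered libraries correlated at 0.13, 0.078 and 0.087 in their deviations from the group means. Each library correlated best with its own number, a hint from the data only, since the labels do not say what the number marks. Control 1 and TAF15 OE 1 also had the lowest choroid plexus sums of their groups. Depth limits Grin3b, with 3 to 13 counts per library.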
